A study of Homo sapiens with 18 samples.

Results

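The comparison described here is that of mtDNA-transfected, mitochondria-depleted senescent fibroblasts with the same cells that received no mtDNA, and it rests on 6 of the 18 RNA-seq libraries of the study. IMR90 is a human fetal lung fibroblast line, and the cells overexpressed Parkin, a ubiquitin ligase that marks damaged mitochondria for removal. All cells of both groups were irradiated to induce senescence (Sen (IR)) and then exposed to the uncoupler CCCP, which with Parkin clears the mitochondria. The 3 libraries of the control group, Sen (IR) + CCCP, carry this treatment alone, and the 3 libraries of the other group, Sen (IR) + CCCP + mtDNA, come from cells that were also transfected with mtDNA extracted from IMR90 cells. Neither the labels nor the methods say that Sen (IR) + CCCP cells were given the transfection reagent without DNA, so the effects of the mtDNA and of the transfection cannot be told apart. The 6 libraries of depleted cells given acetate, 3 without and 3 with mtDNA, share no library with this comparison and are used below as a separate reading of the same treatment. The remaining groups, Sen (IR) and proliferating cells (Prol), give reference levels only. The labels number 3 replicates in each group without saying that they came from separate cultures, whereas the paper's figure legend counts n as independent experiments. The p-values rest on a spread between libraries estimated in a single fit to all 18 libraries, not from the 6 compared alone.

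Mitochondrial DNA is a small circular genome that normally stays inside the organelle. When it, or other double-stranded DNA, reaches the cytosol, the enzyme cGAS senses it and, through STING, activates the transcription factors IRF3 and NF-κB. IRF3 drives interferon-β, whose receptor signals to the interferon-response genes, whereas NF-κB drives inflammatory cytokines, adhesion molecules and its own inhibitors. Cells also respond to amino acid shortage through ATF4, the effector of the integrated stress response. Senescent cells secrete cytokines, growth factors and proteases as the senescence-associated secretory phenotype (SASP).

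Total counts on genes were 24624886 to 35655026 in the Sen (IR) + CCCP libraries and 25964689 to 28988516 in the mtDNA libraries. The interferon list, 266 interferon-response genes found in the table of which 236 were tested, took 0.976 to 0.997% of counts without mtDNA and 2.5, 2.98 and 3.21% with mtDNA, the lowest value being that of mtDNA replicate 2. Among the cells given acetate and mtDNA, replicate 2 stood apart from replicates 1 and 3. Its chi-square per degree of freedom was 28.3 and 24.8, against 3.34 between replicates 1 and 3. The main values with acetate are given below with and without this library. It also entered the fit behind the p-values of the main comparison. Counts from a fit of the compared groups alone, which leaves it out, are given near the end. The fibroblast markers were present in every library, with vimentin (VIM) the most abundant. The 12 leukocyte markers summed to 3.19 to 3.29 TPM (abundance scaled by transcript length and library total) without mtDNA and 2.59 to 2.92 TPM with it, and 2 of them, FCGR3A among these, had 0 counts in the 6 libraries. The 10 epithelial markers summed to 48.1 to 51.8 and 55.1 to 59.0 TPM, with KRT19 the only one raised (0.90, adjusted p = 0.0336 by edgeR), and the 8 endothelial markers to 285 to 299 and 269 to 312 TPM.

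Of 16994 genes tested, 1814 were raised with mtDNA (10.7% of the genes tested) and 1257 were lowered (7.40%), by a quasi-likelihood F-test of edgeR with Benjamini-Hochberg adjustment over all genes and a threshold of 0.05. Interferon-list genes made up 188 of the 1814 raised genes, which left 1626 raised genes outside that list. The raised interferon genes changed most, with a median log2 fold change of 1.61, whereas the raised genes outside the list had a median of 0.31 and the lowered genes a median of -0.43. Of the 1626 raised genes outside the list, 1190 changed by under 0.5 on the log2 scale and 140 by at least 1. Among the lowered genes, 697 fell by under 0.5 and 235 by at least 1. The libraries of the compared groups did not overlap in 1774 of the 1814 raised and 1223 of the 1257 lowered genes. Genes named for the size of their change were picked without overlap, so separation does not set them apart. On the TPM scale limma-trend, which differs from the main test in scaling, transform and test, moved the median of all genes to -0.06 from 0.00, and raised genes made up 34.0% of those called against 59.1% in the main test. With DESeq2's size factors in the same edgeR test the raised share was 59.4%.

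**Figure D1:**
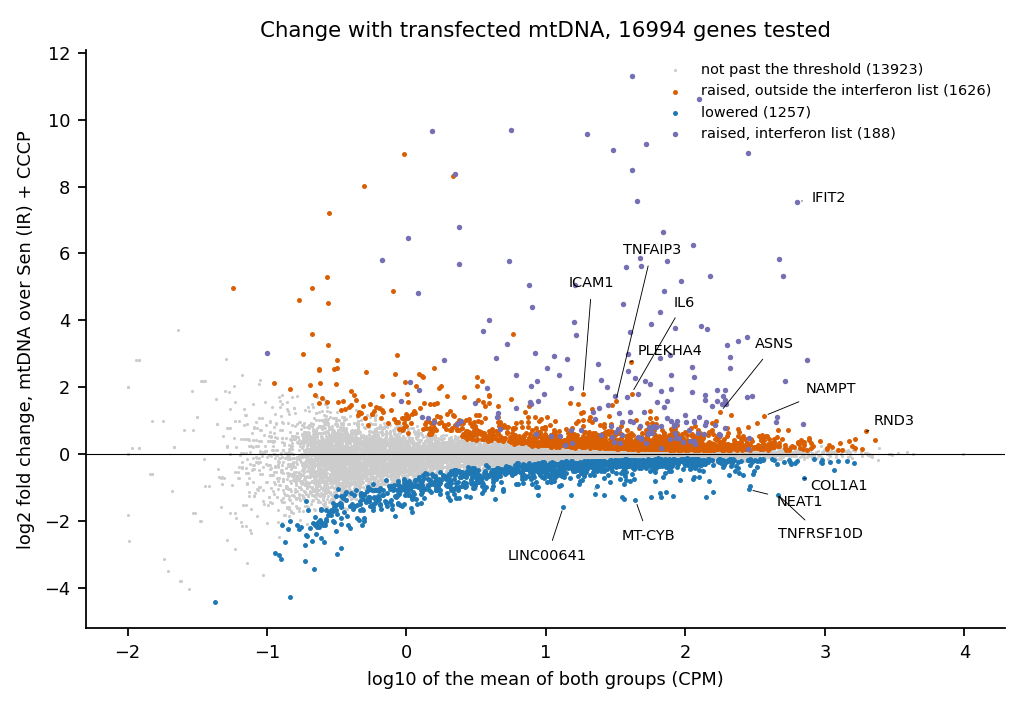
Change with mtDNA of each gene tested: the x axis is the log10 of the mean of the Sen (IR) + CCCP and mtDNA groups in CPM (counts scaled to the library's effective total), and the y axis the fitted log2 fold change, with 3 libraries in each group. The 188 raised interferon-list genes spread up to the largest changes, whereas the 1626 raised genes outside the list and the 1257 lowered genes lie closer to 0.

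Promoters of RefSeq (GRCh38.p14, 250 bases before to 50 after the start of each gene) were searched on both strands for the letters of binding motifs. This compared raised genes on and outside the interferon list. The list may lack genes that respond to interferon, so a gene outside it is not shown to be independent of interferon. A promoter was found for 134 of the 188 raised interferon-list genes and for 1259 of the 1626 raised genes outside the list. The core of the interferon-stimulated response element, searched as GAAA, 2 bases of any kind and GAAA, was in 45.5% of the former and 2.86% of the latter, beside 2.98% of the promoters of all genes tested. An NF-κB motif, searched as GGG, 2 bases of any kind and TTTCC, was in 3.1% of the raised genes outside the list, 29.2% of the NF-κB list and 28.6% of the cytokine list described below, beside 2.13% of all genes tested. TGATGNAA, the core of the element bound by ATF4 with C/EBP proteins, was in 3.26% of the raised genes outside the list and 23.1% of the ATF4 list, beside 1.85% of all genes tested. The AP-1 motif TGACTCA was in 4.61% of the raised genes outside the list, beside 3.43% of all genes tested. There were 93 promoters of raised genes outside the list with a change of at least 1 log2 unit. Among them the shares were 9.68% for the interferon element, 7.53% for NF-κB, 8.60% for the ATF4 element and 10.8% for AP-1. Each was above the share of all genes tested, that of the interferon element included (2.98%). These shares describe letters in a window and not bound sites. Those of the NF-κB, cytokine and ATF4 lists count every tested member with a promoter, called or not. They therefore do not describe the change with mtDNA.

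The following stretches of 60 bases lie upstream of the gene's start and are written on the gene's strand, with every copy of the motif in capitals. The first 4 are from NF-κB targets whose values follow, the next 3 from genes with the ATF4 element and the last from an interferon-response gene for contrast. They are IL6 at chr7:22727102-22727161 (plus strand), TNFAIP3 at chr6:137867167-137867226 (plus strand), BIRC3 at chr11:102317260-102317319 (plus strand), CXCL2 at chr4:74099239-74099298 (minus strand), ASNS at chr7:97872443-97872502 (minus strand), CHAC1 at chr15:40953236-40953295 (plus strand), HRK at chr12:116881483-116881542 (minus strand) and IFIT3 at chr10:89327850-89327909 (plus strand).
IL6: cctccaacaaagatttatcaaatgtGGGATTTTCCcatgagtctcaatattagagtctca
TNFAIP3: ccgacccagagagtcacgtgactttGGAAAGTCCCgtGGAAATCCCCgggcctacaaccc
BIRC3: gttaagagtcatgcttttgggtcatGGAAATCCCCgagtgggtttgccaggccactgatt
CXCL2: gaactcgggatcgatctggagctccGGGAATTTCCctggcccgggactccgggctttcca
ASNS: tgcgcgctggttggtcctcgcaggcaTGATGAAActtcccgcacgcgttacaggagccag
CHAC1: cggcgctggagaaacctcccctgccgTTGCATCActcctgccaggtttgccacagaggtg
HRK: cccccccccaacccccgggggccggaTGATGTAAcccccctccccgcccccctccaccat
IFIT3: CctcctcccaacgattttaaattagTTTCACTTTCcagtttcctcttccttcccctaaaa
In TNFAIP3 the capitals mark a pair of neighbouring NF-κB motifs on the strand opposite to the gene, and in BIRC3, CHAC1 and IFIT3 the motif also lies on the opposite strand. The single capital at the start of the IFIT3 stretch is the end of a further copy.

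The interferon response itself included, among its largest rises in CPM, IFIT2, IFIT3, IFIT1 and EIF2AK2 (PKR, the kinase that halts translation upon double-stranded RNA). IFIT2, an interferon-induced RNA-binding protein, stood at 6.22, 6.99 and 7.0 CPM without mtDNA and at 1465, 931 and 1391 CPM with it (log2 fold change 7.55 ± 0.55 SE, edgeR adjusted p = 2.22e-09). EIF2AK2 stood at 178, 192 and 190 CPM without mtDNA and at 914, 753 and 894 CPM with it (2.19 ± 0.12, adjusted p = 2.51e-11). In each of these genes the lowest mtDNA library was replicate 2 and lay far above the highest library without mtDNA. IFNB1, which encodes interferon-β and is not on the list, had 0 counts in the 3 Sen (IR) + CCCP libraries and 0.904, 1.15 and 0.904 CPM with mtDNA, at least 11-fold higher when set against 3 counts per library. The interferon receptor chains IFNAR1 and IFNAR2 did not pass the test, with log2 changes of -0.04 and 0.02, and 2 interferon-list genes were lowered. One was NLRP1, an inflammasome sensor (-0.39), and the other has a symbol that the deposited table holds as a date and is not named here.

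Of 33 cytokine and chemokine genes outside the interferon list, 14 were raised, 0 were lowered and 19 did not pass the test (10.7% of all genes were raised), with a median log2 fold change of 0.58 against 0.00 for all genes tested. IL6, which encodes the SASP cytokine interleukin-6, stood at 18.6, 18 and 17.9 CPM in Sen (IR) + CCCP and at 71.6, 54.0 and 66.3 CPM with mtDNA, a 3.52-fold rise (log2 1.81 ± 0.12, adjusted p = 5.30e-10). The mtDNA level remained below the 358 CPM mean of Sen (IR) cells. CXCL2, a neutrophil-attracting chemokine, was at 0.279 to 0.404 CPM without and 1.12 to 1.37 CPM with mtDNA (1.79 ± 0.29, adjusted p = 0.000126). Smaller rises were called for IL1A (1.15), TNFSF15 (1.17), CXCL8 (1.02), CXCL3 (0.89), CXCL5 (0.88), CCL2 (0.77), IL32 (0.77), IL24 (0.70) and GDF15 (0.58). IL34 was also called raised, from 0 counts without mtDNA to at most 5 counts in a library with it. IL1B, the inflammasome-processed cytokine (0.26 ± 0.13, edgeR adjusted p = 0.205), and the chemokine CCL20 (1.51 ± 0.61, adjusted p = 0.0969) did not pass the test.

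Receptors and adhesion molecules formed a smaller group, with 8 of 26 members outside the interferon list raised and 0 lowered, beside 10.7% of all genes raised, and a median of 0.14. ICAM1, a ligand of leukocyte integrins, stood at 7.80, 8.11 and 9.07 CPM without and 32.9, 22.2 and 30.6 CPM with mtDNA (1.79 ± 0.15, adjusted p = 2.38e-08). VCAM1, another integrin ligand, stood at 1.11, 1.14 and 1.60 CPM and at 6.69, 3.34 and 5.33 CPM (2.03 ± 0.44, adjusted p = 0.00232). Both genes were picked without overlap between the groups, and both stayed far under their Sen (IR) means of 444 and 316 CPM. IL1RL1 (0.92), TNFRSF1B (0.67), IL18R1 (0.53), IL1R1 (0.49) and OSMR (0.16), receptors of interleukin-33, TNF, interleukin-18, interleukin-1 and oncostatin M, were raised as well. TNFRSF9, a receptor of the TNF family, was called raised at 0 to 0.151 CPM without and 0.181 to 0.581 CPM with mtDNA (2.56 ± 0.68, adjusted p = 0.0105).

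Of the NF-κB subunits and their feedback regulators, 17 of 27 outside the interferon list were raised and 0 lowered, beside 10.7% of all genes raised, with a median of 0.28. TNFAIP3 (A20), a ubiquitin-editing enzyme that switches NF-κB signalling off, stood at 16.7, 17.6 and 13.1 CPM without and 47.7, 45.1 and 49.8 CPM with mtDNA (1.58 ± 0.13, adjusted p = 1.34e-08). BIRC3 (cIAP2), a ubiquitin ligase of the TNF receptor complex, stood at 16.2, 16.8 and 13.7 CPM and at 41.7, 45.2 and 44.6 CPM (1.49 ± 0.09, adjusted p = 6.88e-11). RELB, a subunit of the non-canonical pathway, stood at 5.44 to 6.46 and 11.9 to 12.7 CPM (1.05 ± 0.11, adjusted p = 3.52e-07). For all 3 genes the mtDNA libraries lay close to each other and above the highest library without mtDNA. TRAF1 (0.96), NFKBIE (0.74), TNFAIP2 (0.61), SOD2 (0.55), NFKBIA (0.51), NFKB2 (0.39) and NFKB1 (0.30) were raised less, and RELA, REL and BCL3 did not pass the test. RIPK2, which is on the interferon list as well and so not among the 17, was raised too (0.59).

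**Figure D2:**
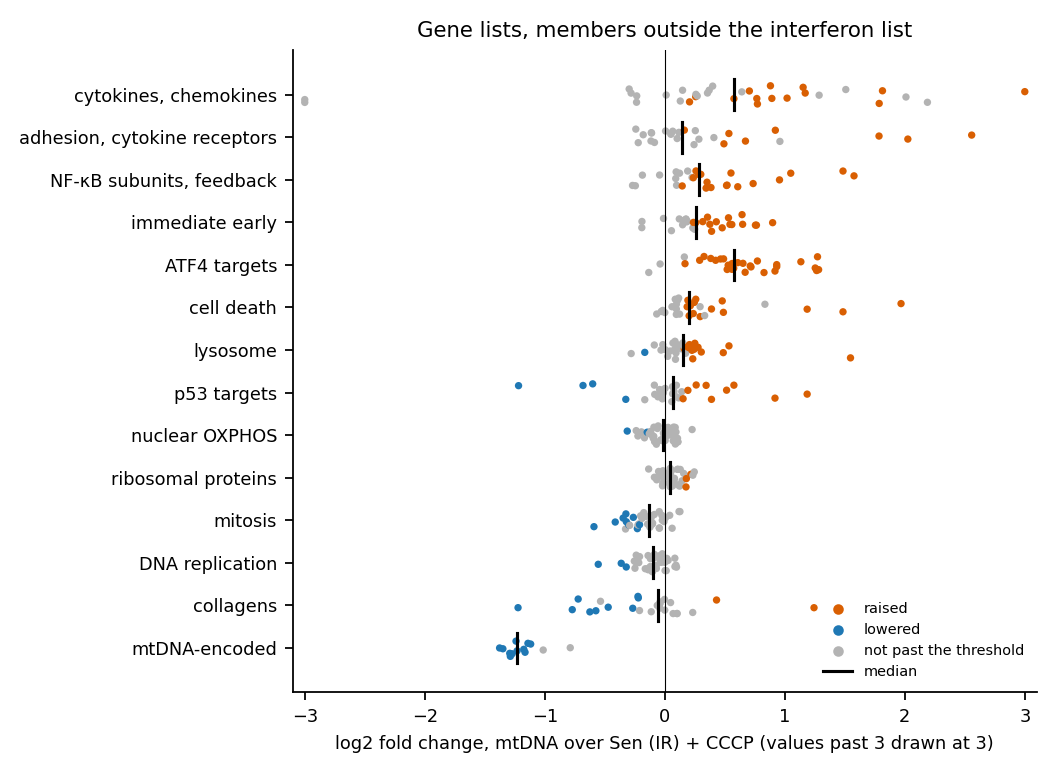
Log2 fold change with mtDNA of the members of 14 gene lists outside the interferon list: each point is 1 gene, coloured by whether it was raised, lowered or not past the threshold, and the bar is the list's median. The ATF4 targets lie almost wholly to the right of 0 (28 of 31 raised) and the mtDNA-encoded genes wholly to the left (11 of 13 lowered), whereas nuclear OXPHOS and ribosomal protein genes lie around 0.

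The most uniform rise outside the interferon list was that of ATF4 target genes, which serve amino acid synthesis, transport and tRNA charging. Of 31 members tested, 28 were raised and 0 lowered, beside 10.7% of all genes raised, with a median log2 fold change of 0.57. ASNS, asparagine synthetase, stood at 108, 106 and 100 CPM without and 259, 241 and 257 CPM with mtDNA (1.27 ± 0.05, adjusted p = 1.14e-12). TRIB3, a pseudokinase induced by the stress response, stood at 33.5, 33.5 and 30.1 CPM and at 79.2, 80.0 and 77.3 CPM (1.28 ± 0.06, adjusted p = 3.84e-12). PCK2, the mitochondrial phosphoenolpyruvate carboxykinase, stood at 12.2, 11.1 and 9.40 CPM and at 27.1, 24.2 and 27.0 CPM (1.25 ± 0.08, adjusted p = 3.82e-10). The replicates of these genes were tight, so that changes of modest size were many times their standard error. The serine and folate enzymes PSAT1 (0.93), PHGDH (0.67), PSPH (0.57), MTHFD2 (0.83), SHMT2 (0.49) and ALDH1L2 (0.71) were raised, as were the glutathione-degrading CHAC1 (1.13), the transporters SLC7A5 (0.77), SLC7A1 (0.61) and SLC3A2 (0.56), the mTOR inhibitors DDIT4 (0.93) and SESN2 (0.92), the transcription factors CEBPB (0.72) and DDIT3 (0.65) and the tRNA synthetase genes GARS (0.53), AARS (0.52), SARS (0.33) and NARS (0.29). ATF4, whose product is controlled mainly by translation, stood at 596, 613 and 621 CPM without and 593, 604 and 584 CPM with mtDNA and did not pass the test (-0.04 ± 0.06, adjusted p = 0.723), and neither did ATF5 and SLC7A11. The Sen (IR) mean was 19.8 CPM for ASNS and 5.85 CPM for TRIB3. Of the 24 genes of the endoplasmic reticulum stress response, 6 were raised (10.7% of all genes were) and 0 lowered, with XBP1 (0.79), ERN1 (0.63), HERPUD1 (0.54) and the chaperone HSPA5 (0.42) at the top, and a list median of 0.10.

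Immediate early genes, the first transcription factors to answer a stimulus, were raised in 16 of 29 cases and lowered in 0 (median 0.26; 10.7% of all genes were raised). KLF4 was at 16.2 to 19.8 CPM without and 32.3 to 36.7 CPM with mtDNA (0.90 ± 0.10, adjusted p = 8.30e-07), and ATF3 at 161 to 187 and 285 to 304 CPM (0.76 ± 0.10, adjusted p = 4.82e-06). EGR1 (0.64), KLF6 (0.65), DUSP5 (0.76), DUSP1 (0.56), JUNB (0.53) and MYC (0.48) were raised too. Cell death genes were raised in 14 of 29 cases outside the interferon list and lowered in 0 (median 0.20), beside the same 10.7%. PMAIP1 (NOXA), a BH3-only protein that antagonises MCL1, stood at 132, 133 and 126 CPM and at 303, 278 and 307 CPM (1.19 ± 0.08, adjusted p = 3.66e-10), and HRK, another BH3-only protein, at 0.641 to 0.757 and 2.31 to 3.2 CPM (1.97 ± 0.29, adjusted p = 3.83e-05). The survival genes MCL1 (662, 672 and 608 against 876, 912 and 920 CPM; 0.48 ± 0.05, adjusted p = 7.23e-07) and BCL2L1 (0.20) were raised beside them, so that members of opposite function moved in the same direction.

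Among raised genes outside the interferon list with a mean of at least 2 CPM, several of the largest log2 changes were those of genes on none of the pathway lists. AL445490.1, a long non-coding RNA at chr1:27669468-27703063 whose span overlaps the interferon-response gene IFI6 without sharing exon bases with it, had at most 1 count in a Sen (IR) + CCCP library and 4.81, 3.34 and 4.75 CPM with mtDNA, at least 48.1-fold higher when set against 3 counts per library. PLEKHA4, a phosphoinositide-binding adaptor at chr19:48837092-48868617, stood at 9.09, 9.97 and 12.2 CPM and at 80.6, 56 and 74.7 CPM (2.77 ± 0.26, adjusted p = 7.27e-08). Both were picked with every mtDNA library above every library without it. ANO7L1 (2.57), GIMAP2 (2.35), PIK3AP1 (2.32), AC083862.2 (2.30), PDZD2 (2.18), ARHGAP27 (2.05) and CLDN23 (1.76) were also among the 15 largest, with means of 2.15 to 6.04 CPM with mtDNA. TLDC2 (2.4) shares exon bases with SAMHD1, an interferon-list gene on the opposite strand that was itself raised (2.61), AC083862.2 shares them with CYREN, and the pseudogene ANO7L1 with another annotated transcript on its own strand. Whether the counting used strand is not stated for these libraries, so that reads of such partners could not be separated here.

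Measured by the rise in CPM, abundant fibroblast genes came first. RND3, a small GTPase that loosens stress fibres, stood at 1525, 1591 and 1464 CPM and at 2499.7, 2356 and 2480.3 CPM (0.68 ± 0.05, adjusted p = 5.01e-09). NAMPT, the rate-limiting enzyme of the NAD salvage pathway, stood at 228, 235 and 222 CPM and at 526, 481 and 503 CPM (1.14 ± 0.05, adjusted p = 1.14e-12). FGF2, a fibroblast mitogen, stood at 414, 429 and 392 CPM and at 667, 663 and 697 CPM (0.71 ± 0.08, adjusted p = 3.89e-07), although it shares exon bases with NUDT6 on the opposite strand. These 3 genes had replicates within a narrow range, and they were picked without overlap between the groups. The urokinase PLAU (0.42), the stress hormone STC2 (0.46), the BMP antagonist GREM1 (0.41), PHLDA1 (0.34), the ectonucleotidase NT5E (0.38) and the lysosomal protease CTSB (0.23) completed the group. CTSB did not pass the threshold under 4 of 14 alternative settings. Of the growth factors 8 of 35 were raised and 4 lowered, beside 10.7% and 7.40% of all genes, with the epidermal growth factor receptor ligand EREG at 34.8 to 37.8 and 67.3 to 83.0 CPM (1.08 ± 0.07, adjusted p = 5.30e-10), VEGFC raised (0.84), and FGF7 (-0.36) and HGF (-0.20) lowered. PTGS2 (COX-2), which makes prostaglandins, was at 16.6 to 17.9 and 29.4 to 34.4 CPM (0.89 ± 0.10, adjusted p = 8.47e-07). Lysosomal genes were raised in 14 of 36 cases and lowered in 1 (median 0.15), beside 10.7% and 7.40% of all genes. The raised count was 7 without Sen (IR) + CCCP replicate 1, 8 to 11 without any other library of the comparison, and 4 (with 2 lowered) on the TPM scale. Among them LIPA (0.53) shares exon bases with IFIT2 and IFIT3 on the opposite strand.

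Of the 20 genes that mark the senescent state, 4 were raised and 0 lowered, a count not far from the 10.7% of all genes that were raised. CDKN2B (p15), an inhibitor of CDK4 and CDK6, stood at 44.3, 42.8 and 41.3 CPM and at 82.3, 76.2 and 83.2 CPM (0.91 ± 0.05, adjusted p = 6.88e-11), and CDKN2A, its neighbour at the same locus, at 5.88 to 6.77 and 8.55 to 9.17 CPM (0.46 ± 0.10, adjusted p = 0.00205). CDKN1A (p21), the p53-driven CDK inhibitor, did not pass the test (0.06 ± 0.05, adjusted p = 0.431). The p53 target list was split, with 9 of 33 raised and 4 lowered, beside 10.7% and 7.40% of all genes. TNFRSF10D, a decoy receptor of TRAIL, stood at 655, 682 and 603 CPM and at 233, 332 and 269 CPM (-1.22 ± 0.16, adjusted p = 8.53e-06). The RNA-binding protein gene ZMAT3 stood at 363, 374 and 374 CPM and at 230, 254 and 248 CPM (-0.60 ± 0.09, adjusted p = 4.22e-05). FDXR (-0.68) and DDB2 (-0.32) were lowered with them. TNFRSF10D was picked without overlap between the groups, and its highest mtDNA library was replicate 2.

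**Figure D3:**
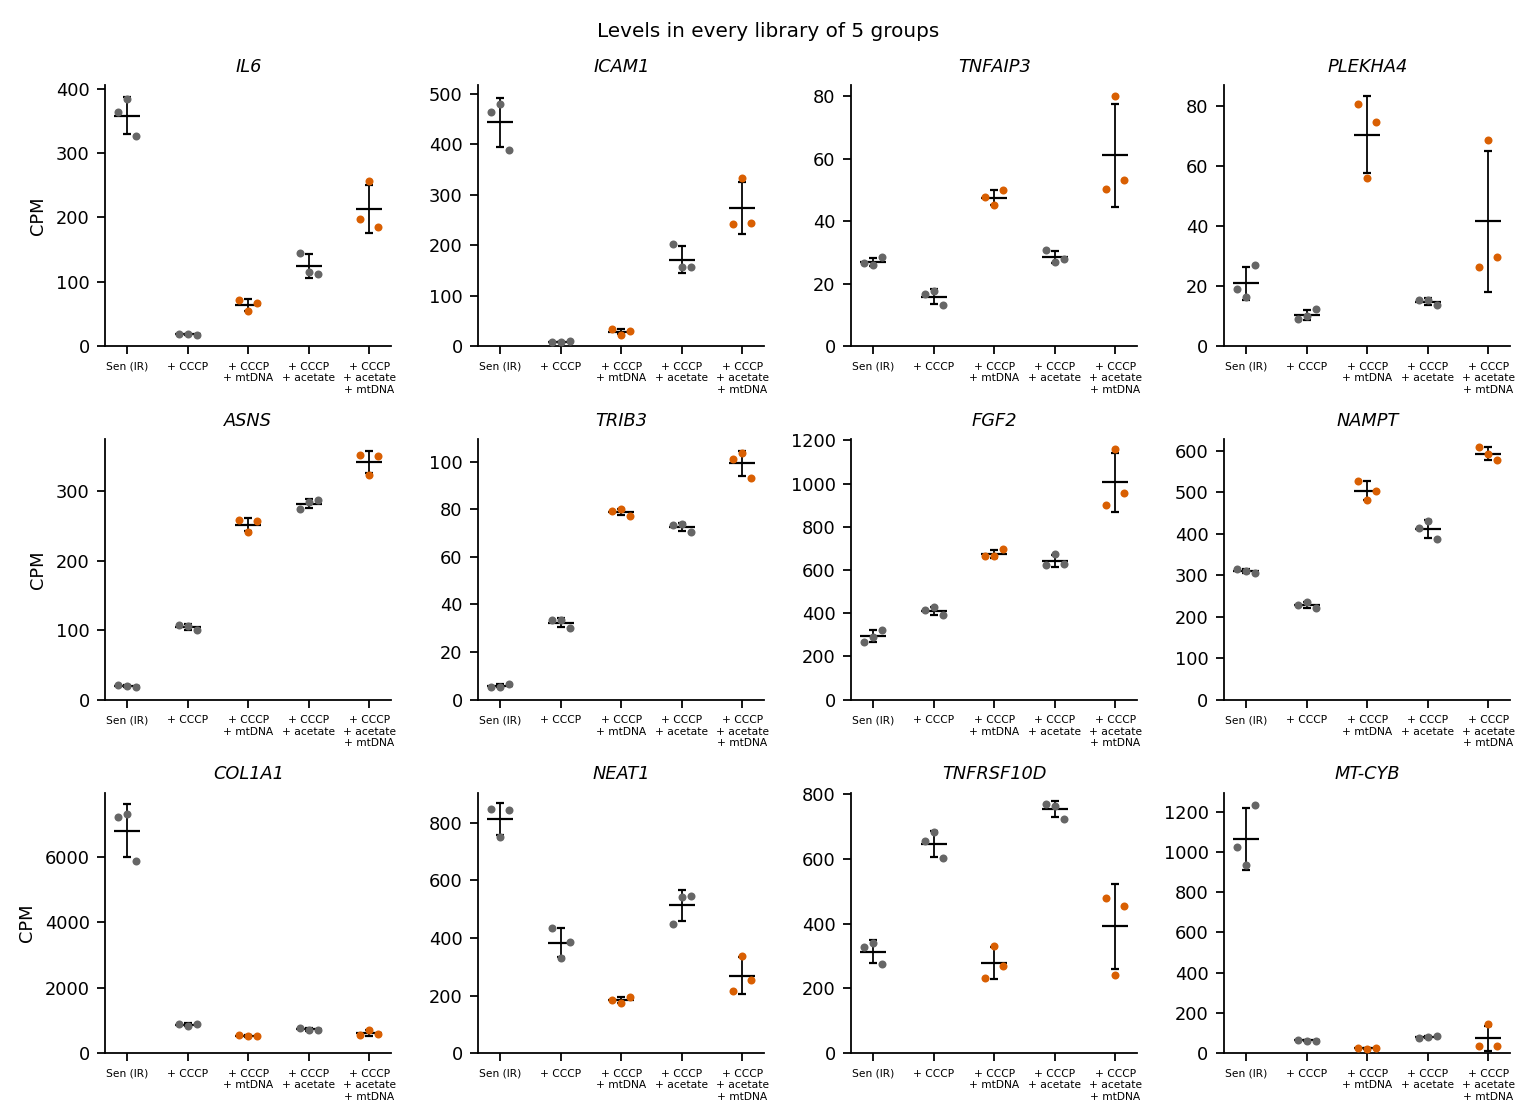
Levels in CPM of 12 genes in every library of 5 groups: points are single libraries (orange, with mtDNA), and bars are the mean and SD of 3 libraries. IL6, ICAM1, TNFAIP3, PLEKHA4, ASNS, TRIB3, FGF2 and NAMPT are higher and COL1A1, NEAT1, TNFRSF10D and MT-CYB lower in each of the 3 mtDNA libraries than in each of the 3 Sen (IR) + CCCP libraries.

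Of 26 collagen genes 9 were lowered and 2 raised, with a median of -0.05, beside 7.40% of all genes lowered. The count of lowered collagens was 5 without Sen (IR) + CCCP replicate 1 or 3 or mtDNA replicate 2 or 3, and 7 without either of the others. COL1A1 stood at 903, 828 and 901 CPM without and 559, 515 and 521 CPM with mtDNA (-0.72 ± 0.09, adjusted p = 2.41e-06), and COL1A2, the second chain of collagen I, at 1299.6, 1310.1 and 1415 CPM and at 1022, 922 and 959 CPM (-0.47 ± 0.10, adjusted p = 0.00269). Both chains were picked without overlap between the groups. COL3A1 was lowered by a smaller margin relative to its spread (279, 255 and 333 against 234, 152 and 197 CPM; -0.57 ± 0.18, adjusted p = 0.0306). COL24A1 (-1.22), COL7A1 (-0.77), COL27A1 (-0.62), COL5A1 (-0.27), COL5A2 (-0.22) and COL16A1 (-0.22) were lowered, and COL15A1 (0.43) and COL8A2 (1.24) raised. The 11 fibroblast markers, which include both collagen I chains, summed to 5680 to 5890 TPM without and 5100 to 5270 TPM with mtDNA, while their most abundant member VIM did not pass the test (0.06), and the part of this shift in the collagen values was not tested. The collagen-modifying enzyme PLOD2 (-0.23), the tissue factor gene F3 (-0.27), CAV1 (-0.21), FAT1 (-0.27) and the chaperone HSPA8 (-0.20) were lowered too, and among these PLOD2, F3, FAT1 and HSPA8 missed the threshold under 2 to 6 of 14 alternative settings. Of 37 mitotic genes 9 were lowered and 0 raised (median -0.13; 1 to 6 lowered when any 1 library was left out, 1 without mtDNA replicate 1), including the kinases PLK1 (-0.59) and AURKA (-0.21), and of 40 replication genes 3 were lowered and 0 raised (LIG1, CCNE2 and MCM10; 1 to 3 with 1 library left out), beside 7.40% of all genes tested. The counts of mitotic and replication genes thus depended on single libraries.

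Long non-coding RNAs were more often lowered than raised. By the GENCODE v44 annotation, 228 of 2254 lncRNAs were lowered (10.1%) and 56 raised (2.48%), with a median log2 fold change of -0.19, whereas of 13466 nuclear protein-coding genes 903 were lowered (6.71%) and 1729 raised (12.8%), with a median of 0.02. Without Sen (IR) + CCCP replicate 1 the lowered counts were 133 lncRNAs and 515 coding genes, without mtDNA replicate 1 150 and 530, without mtDNA replicate 3 149 and 526, and without Sen (IR) + CCCP replicate 3 178 and 591. Of 825 pseudogenes 70 were lowered (8.48%) and 21 raised (2.55%), beside 7.40% and 10.7% of all genes (median -0.10). Their median level in Sen (IR) + CCCP was 0.665 CPM, and they were not compared within bands of level. The difference between lncRNAs and coding genes held within bands of level: at 5 to 20 CPM 30 of 172 lncRNAs (17.4%) and 255 of 2920 coding genes (8.73%) were lowered, and from 20 CPM 11 of 54 (20.4%) and 477 of 7085 (6.73%). The lncRNA median was closer to that of coding genes at higher levels. Below 1 CPM, where 1461 of the lncRNAs lay, it was -0.26 against -0.05 for coding genes. At 1 to 5 CPM the medians were -0.15 and -0.01, at 5 to 20 CPM -0.09 and 0.01, and from 20 CPM -0.04 and 0.03. Of the lncRNAs that share no exon bases with a coding gene 105 of 1153 were lowered (9.11%), and of those that do 123 of 1101 (11.2%). The share of counts on lncRNAs was 0.96 to 1.03% in the Sen (IR) + CCCP libraries and 0.82 to 0.84% in the mtDNA libraries. On the TPM scale 350 lncRNAs were lowered, and the lncRNA median was -0.17 against -0.05 for coding genes.

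Abundant lncRNAs were among those that fell. NEAT1, the scaffold of paraspeckles at chr11:65422774-65445540, stood at 434, 332 and 386 CPM without and 185, 174 and 196 CPM with mtDNA (-1.05 ± 0.13, adjusted p = 2.22e-06). MEG3, an imprinted lncRNA at chr14:100779410-100861031, stood at 434, 358 and 351 CPM and at 198, 191 and 207 CPM (-0.94 ± 0.11, adjusted p = 2.07e-06). LINC00641 at chr14:21200079-21206900, which overlaps no other annotated gene, stood at 20.6, 20.1 and 19.2 CPM and at 5.71, 6.79 and 7.69 CPM (-1.57 ± 0.16, adjusted p = 1.64e-07). All 3 were picked without overlap between the groups. MALAT1, singled out after its value was seen because it is the other abundant nuclear lncRNA, fell as well (-0.62, adjusted p = 0.00721, means of 316 and 205 CPM). The further lowered genes with the largest changes were the lncRNAs AC073957.3 (-1.36), SH3BP5-AS1 (-1.33), AL021368.2 (-1.31) and AC015871.3 (-1.27), and the coding genes C2orf92 (-1.3) and GNRH1 (-1.25). Of these lncRNAs, SH3BP5-AS1 shares exon bases with SH3BP5, and AC073957.3 with GET4 and SUN1, on the opposite strand.

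Transcripts of the mitochondrial genome itself were lower after mtDNA transfection. The 13 protein-coding genes of mtDNA took 0.136, 0.118 and 0.114% of counts in Sen (IR) + CCCP and 0.0519, 0.0461 and 0.0534% with mtDNA, against 2.11% ± 0.468 (SD, n = 3) in Sen (IR) cells. The groups did not overlap, and the exact two-sided permutation test gave p = 0.1, the smallest that 3 against 3 libraries allow. By gene, 11 of 13 were lowered and 0 raised, with a median of -1.23, beside 7.40% of all genes lowered. MT-CYB, which encodes cytochrome b of complex III (chrM:14747-15887), stood at 67.9, 60.6 and 61.6 CPM without and 24.5, 22 and 26.6 CPM with mtDNA (-1.38 ± 0.32, adjusted p = 0.00422). The other lowered genes ranged from -1.35 (MT-ND4L) to -1.12 (MT-CO1), whereas MT-ND1 (-1.01 ± 0.37, adjusted p = 0.0605) and MT-ND3 (-0.79 ± 0.37, adjusted p = 0.154) did not pass the test. In a fit of the groups of this comparison alone all 13 were lowered, with a median of -1.25. Of 43 nuclear genes of oxidative phosphorylation 2 were lowered and 0 raised (median -0.01), beside 7.40% and 10.7% of all genes. Neither uptake of the DNA nor the number of remaining mitochondria is measured by these libraries, and in such bulk RNA fewer cells with mitochondria and less mitochondrial RNA per cell cannot be told apart.

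**Figure D4:**
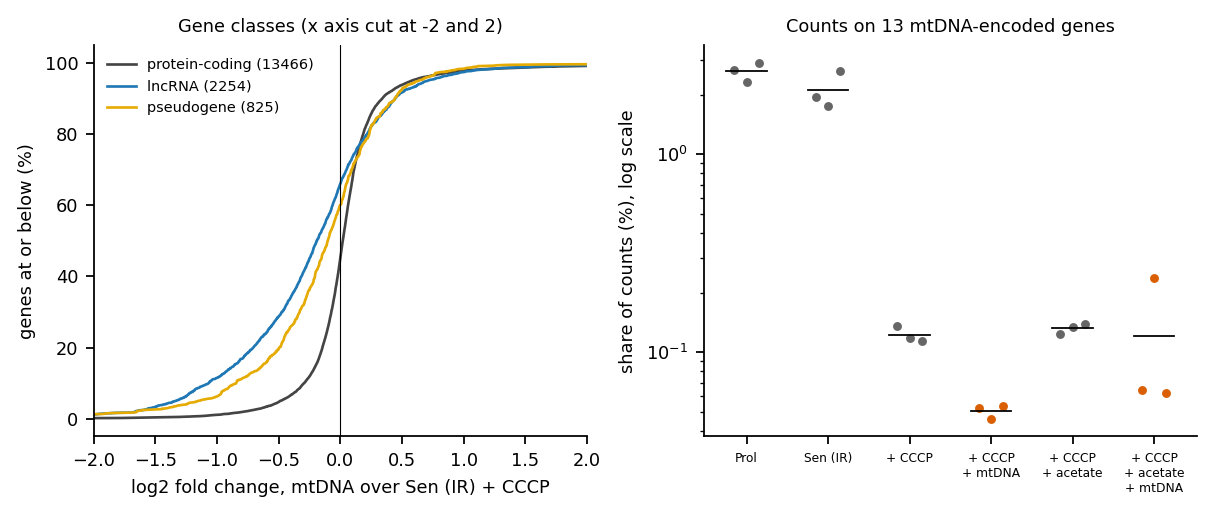
Left, cumulative share of genes at or below each log2 fold change with mtDNA for 13466 protein-coding genes, 2254 lncRNAs and 825 pseudogenes; the lncRNA curve lies to the left of the protein-coding curve below 0. Right, share of counts on the 13 mtDNA-encoded genes in each library on a log scale, with the group mean as a bar: the 3 mtDNA libraries lie between 0.0461 and 0.0534% and the 3 Sen (IR) + CCCP libraries between 0.114 and 0.136%.

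The same treatment in cells that had also received acetate, a precursor of acetyl-CoA, gave an independent set of libraries. With acetate, mtDNA raised 1116 genes (6.57% of the genes tested) and lowered 1020 (6.0%), and without the library that stood apart 855 and 767. Of the 1626 genes raised outside the interferon list, 599 (36.8%) were raised with acetate too and 3 were lowered, and 1511 had a log2 change above 0; without that library 442 were raised. Of the 1257 lowered genes, 546 (43.4%) were lowered with acetate too and 3 were raised, and without that library 468 were lowered. The median changes with acetate were 0.17 for the genes raised outside the list and -0.29 for the lowered genes, and 0.15 and -0.28 without that library. With acetate 220 lncRNAs were lowered and 21 raised (165 and 8 without the library that stood apart), and NEAT1 (-0.93, adjusted p = 2.87e-05), MEG3 (-0.87, adjusted p = 1.56e-05) and LINC00641 (-1.17, adjusted p = 1.33e-05) fell again. PLEKHA4 (1.47, adjusted p = 0.000385) and TNFAIP3 (1.10, adjusted p = 3.45e-06) rose again, whereas PIK3AP1 (1.00, adjusted p = 0.125), GIMAP2 (1.81, adjusted p = 0.106) and HRK (1.2, adjusted p = 0.237) did not pass the test there, with or without that library. Without it the changes with acetate were 0.91 for PLEKHA4, 0.86 for TNFAIP3, -1.13 for NEAT1, -1.01 for MEG3 and -0.97 for LINC00641, all past the threshold.

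The mtDNA-encoded genes depended on 1 library in that second set. With acetate and mtDNA they took 0.0640, 0.237 and 0.0624% of counts in replicates 1 to 3, and with acetate alone 0.123 to 0.138%, so that replicate 2 lay above and the other two below the acetate libraries. None of the 13 genes was called with all libraries (median -0.06), and without replicate 2 all 13 were lowered (median -0.99). Replicate 2 also had 2.83% of its counts on interferon-list genes, against 1.60 and 1.64%. The collagen list turned with it, from 3 raised and 3 lowered with acetate to 0 raised and 6 lowered without that library. With all libraries COL1A1 (-0.23, adjusted p = 0.0885) and COL1A2 (-0.06, adjusted p = 0.763) did not pass the test with acetate. Without it both were lowered (COL1A1 -0.34, edgeR adjusted p = 0.00574, and COL1A2 -0.26, adjusted p = 0.0223).

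The changes with and without acetate differed for 112 genes (0.659% of the genes tested) by the interaction test, and 97 of these were genes raised by mtDNA alone whose log2 change was smaller with acetate. Of these, 81 lay outside the interferon list. ATF4 targets stood out in number, with 19 of 31 called, each with the smaller log2 change in the presence of acetate. ASNS stood at 275, 284 and 287 CPM with acetate and at 352, 324 and 351 CPM with acetate and mtDNA, a log2 change of 0.28 against 1.27 without acetate (difference -0.99, adjusted p = 1.63e-07). TRIB3 stood at 70.4 to 73.6 CPM with acetate and 93.2 to 103 CPM with both (0.45 against 1.28, difference -0.83, adjusted p = 1.03e-05), and PCK2 at 34.9 to 37.5 and 42.7 to 46.0 CPM (0.30 against 1.25, difference -0.95, adjusted p = 5.42e-05). In these genes the acetate libraries started near or above the level that mtDNA alone reached. IL6 (difference -1.04, adjusted p = 0.00249), ICAM1 (-1.11, adjusted p = 0.00735) and BIRC3 (-0.77, adjusted p = 0.00141) also had the smaller log2 change with acetate, but from a higher start: IL6 rose from a mean of 124 to 213 CPM with acetate and from 18.2 to 64.0 CPM without it, and ICAM1 from 171 to 273 CPM and from 8.33 to 28.6 CPM. The metalloproteinase gene MMP3 was raised without acetate (0.44, adjusted p = 0.00204) and lowered with it (-0.47, adjusted p = 0.00463; difference -0.91, adjusted p = 0.00252). For TNFAIP3 (difference -0.48, adjusted p = 0.282), ATF3 (-0.04, adjusted p = 0.945) and NEAT1 the difference did not pass the test. The count of the interaction rose to 403 genes without the library that stood apart, and the ATF4 targets called rose to 21. ASNS, TRIB3, PCK2, IL6, ICAM1, BIRC3 and MMP3 kept their call without it. TNFAIP3 (-0.71, adjusted p = 0.000333), PLEKHA4 (-1.86, adjusted p = 1.5e-06) and COL1A1 (0.38, adjusted p = 0.0455) passed the test of the difference without that library but not with all libraries, whereas ATF3 and NEAT1 again did not.

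**Figure D5:**
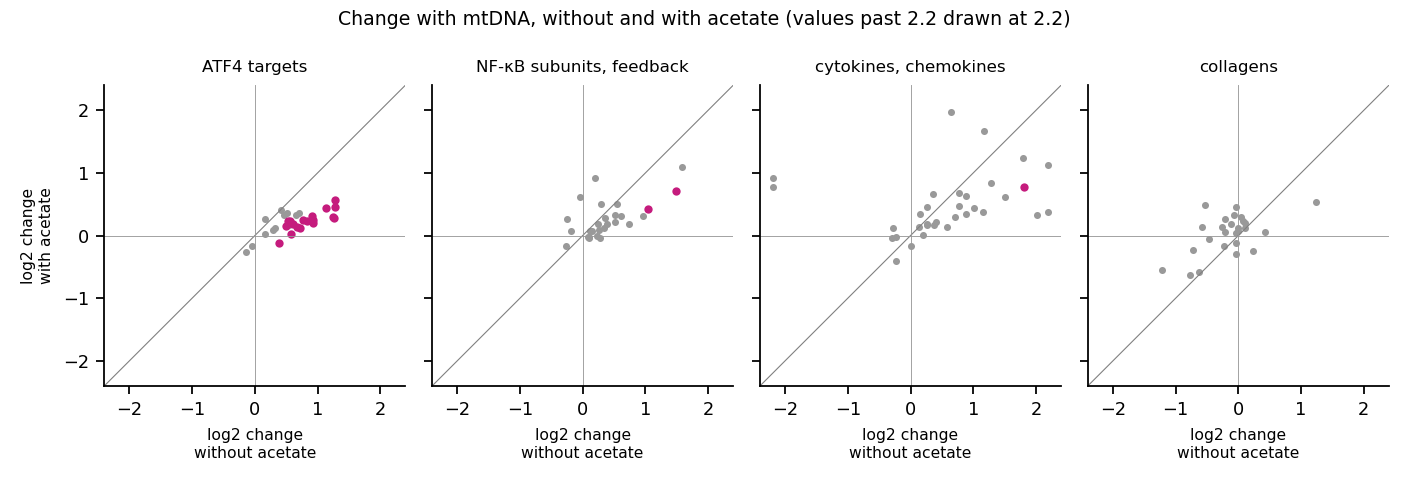
Log2 fold change with mtDNA without acetate (x axis) and with acetate (y axis) for members of 4 lists outside the interferon list, with genes called by the interaction test in pink and the line of equal change in grey. The 19 called ATF4 targets lie below the line, with changes up to 1.28 without and at most 0.57 with acetate.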

How the data were processed

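PolyA RNA was sequenced by the authors with paired reads (2 × 150 bases). Per the labels and the methods, Trimmomatic 0.36 was used for trimming, STAR 2.5.2b for alignment to GRCh38, and the authors counted uniquely mapped reads per gene with featureCounts (Subread 1.5.2), and deposited these raw counts for 57500 genes. A matching matrix of TPM was deposited as well. Libraries were assigned by their labels, and 0 columns were left without a sample.

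With edgeR 4.0.16 under R 4.3.3, a single quasi-likelihood model with TMM factors and 6 group means, without a replicate block, was fitted to the counts of all 18 libraries. filterByExpr left 16994 genes, the common biological coefficient of variation was 0.0644, and log2 fold changes are given ± SE with p-values adjusted by Benjamini-Hochberg over all genes. CPM use TMM-scaled library sizes. At these depths a floor of 3 counts per library bounds a gene at 0, for counting error only. On data simulated for this comparison (16419 genes), all 50 genes raised and all 50 lowered by 1 log2 unit were called. At 0.5 it was 41 of 50 in each direction. The changed genes were drawn from those with a mean of at least 2 CPM. These rates were not measured below that level, and the lncRNAs tested had a median of 0.651 CPM in Sen (IR) + CCCP.

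List members were matched by the file's symbol or by the current symbol of its gene ID. Named genes were those past the threshold outside the interferon list, without overlap between groups and with a mean of at least 2 CPM in the higher group: the 15 largest log2 changes and 10 largest CPM changes in each direction, the 5 largest CPM rises of the interferon list, and list members. Some genes picked by this rule are not reported here. The comparison, the members and the lists were chosen with earlier results of these data known. Alternatives were other size factors, filters and models, DESeq2 1.42.0 and limma 3.58.1 (limma-trend on log2(TPM + 1)), and leaving out each library. Genes were placed by GENCODE v44, in which 182 of the genes tested were not found.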

Additional observations from a re-analysis of the deposited data

Results flagged for a closer look

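The results listed here are those in which the change with mtDNA differed between cells without and with acetate by edgeR's interaction test (adjusted p under 0.05). The genes searched were those picked by the naming rule, CXCL10 and the members of certain lists. These were the lists of ATF4 targets, NF-κB, cytokines, adhesion and receptors, cell death, the senescent state, growth factors and matrix proteases. The other lists were not searched in full. In them 17 genes of the interferon list, CXCL10 among these, and the matrix gene VCAN (difference 0.35, edgeR adjusted p = 0.0266) were called, for example. There were 33, and each difference is given as the log2 change with acetate minus that without. No test for an outlying sample within a group was run on single values, since the groups hold 3 libraries.

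In the ATF4 list the differences were -0.99 for ASNS, -0.95 for PCK2, -0.83 for TRIB3, -0.74 for PSAT1, -0.7 for CTH, -0.7 for CHAC1, -0.69 for DDIT4, -0.6 for SESN2, -0.59 for CEBPB, -0.59 for MTHFD2, -0.54 for PSPH, -0.54 for PHGDH, -0.52 for SLC7A5, -0.5 for VLDLR, -0.42 for SLC7A1, -0.36 for NUPR1, -0.34 for SHMT2, -0.32 for SLC3A2 and -0.3 for GARS. Among cytokine, adhesion and NF-κB genes they were -3.33 for CXCL10, whose call was lost in 10 of 12 fits that left out 1 library, -1.11 for ICAM1, -1.04 for IL6, -0.77 for BIRC3 and -0.63 for RELB. Among growth factors, proteases and the remaining genes they were -1.82 for ANO7L1, -0.96 for IGFBP1, -0.91 for MMP3, -0.61 for EREG, -0.61 for NAMPT, -0.59 for CDKN2B, -0.51 for PMAIP1, -0.47 for MMP1 and -0.47 for VEGFC. In every one of these listed genes the difference was below 0. Over all genes tested, 99 of the 112 called were below 0 and 13 above. Genes whose mean in CPM with acetate alone was already above that with mtDNA alone included ASNS, PCK2, IL6, ICAM1, BIRC3, CDKN2B, VEGFC and VLDLR. For TRIB3 the mean with acetate alone was below it.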

How the results depend on the processing

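Direction was followed gene by gene only for genes picked by the naming rule and some genes of the interaction. None of these reversed. Without acetate + mtDNA replicate 2 the medians with acetate changed sign for collagens (0.09 to -0.04) and mitotic genes (0.12 to -0.06). Without acetate + mtDNA replicate 3 the median of the mtDNA-encoded genes with acetate changed sign as well (-0.06 to 0.26). Leaving out 1 library gave 737 to 918 lowered genes (main 1257), with 737 without Sen (IR) + CCCP replicate 1, 777 without mtDNA replicate 3 and 778 without mtDNA replicate 1, and 147 to 233 lowered by at least 1 log2 unit (main 235), with 147 without Sen (IR) + CCCP replicate 1. The interaction count ranged from 55 to 403 (main 112): it was 55, 62, 62 and 67 without Sen (IR) + CCCP replicates 3 and 2 and mtDNA replicates 1 and 3, 68, 73 and 68 without acetate replicates 1 to 3, and 403 without acetate + mtDNA replicate 2. The count with acetate ranged from 1241 to 1882 (main 2136), with 1241 and 1296 without acetate replicates 2 and 3. Without a filter on low counts the interaction gave 413 genes and by the DESeq2 Wald test 273. At 10 counts or more in every library 159 genes were raised and 89 lowered by at least 1 log2 unit. A fit of only the compared groups tested 15546 genes. It gave 2026 raised (main 1814), 1833 of them outside the interferon list, and 1820 lowered (main 1257). limma-trend on TPM gave 1126 raised, 942 of them outside the interferon list, and 2184 lowered, with 167 raised and 130 lowered by at least 1. The causes were not tested. CXCL10 lost the interaction call in 10 of the 12 fits that left out 1 library, with DESeq2 size factors, at 10 counts or more in every library and with only the groups compared.

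Same-numbered libraries did not deviate together (r of -0.0677, 0.186 and 0.0489 between the groups compared), so the numbers were not taken to pair them. With the replicate block 1837 genes were raised and 1286 lowered, with 263 and 236 by at least 1 log2 unit, 1648 raised outside the interferon list and 123 called by the interaction.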
